A study of Mus musculus with 4 samples.

Results

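The Id genes Id1, Id2, Id3 and Id4 were taken by name, as 4 of the 21755 protein-coding genes of GENCODE vM21 on chromosomes 1 to 19 and X, and their promoters were followed in H3K4me3 HiChIP-seq of MLg cells, a mouse lung fibroblast line. HiChIP-seq ligates restriction fragments (here cut with MboI) that lie close together in the nucleus and then precipitates chromatin with an antibody, here against H3K4me3, the histone mark of active promoters. There were 4 libraries, 1 per condition. In Control the cells received no TGFB1, and in TGFB1 they received 5 ng/ml of human recombinant TGFB1 for 4 h, from 20 h after transfection until harvest at 24 h. The miR-9-LOF and TGFB1+miR-9-LOF libraries came from cells transfected with 60 nM of an antagomiR against miR-9 (LOF stands for loss of function), without and with the same TGFB1 treatment. The methods describe a negative control antagomiR for the cells without the miR-9 antagomiR, which the labels of Control and TGFB1 do not name. All libraries come from 1 cell line, and the transfection was transient. Values of the 4 libraries are given throughout in a fixed order, first Control, then TGFB1, after it TGFB1+miR-9-LOF and last miR-9-LOF.

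ID proteins are helix-loop-helix proteins that lack the basic region with which related factors bind DNA. They pair with E proteins such as TCF3, TCF4 and TCF12 and keep them off DNA. In many cell types the Id genes are direct targets of BMP signaling through SMAD1 and SMAD5, while TGFB1 can raise or repress Id1 depending on the cell and the time after stimulation.

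The 4 genes lay on 4 chromosomes of mm10. Id1 lay on chromosome 2 from 152736251 to 152737410 on the plus strand, Id2 on chromosome 12 from 25093799 to 25097140 on the minus strand, Id3 on chromosome 4 from 136143497 to 136145755 on the plus strand, and Id4 on chromosome 13 from 48261228 to 48266026 on the plus strand. The GENCODE 5′ end of each gene served as its transcription start site (TSS). None had another coding TSS within 10 kb. Id1 and Id3 had coding neighbors on both sides, Mcts2 at 49.2 kb upstream and Cox4i2 at 17.9 kb downstream of Id1, and Rpl11 at 90.1 kb upstream and E2f2 at 28.9 kb downstream of Id3. Id2 and Id4 bordered long stretches without a coding gene. The nearest coding TSS upstream of Id2 was Rnf144a at 1318 kb and that of Id4 was Rnf144b at 1139 kb, while Kidins220 lay 122 kb downstream of Id2 and Zfp169 252 kb downstream of Id4. Within 500 kb there were 35 other coding TSS around Id1, 24 around Id3, 5 around Id2 and 4 around Id4. The antisense gene A330033J07Rik and the lincRNA Gm49291 also overlapped the TSS of Id4, and pair ends carry no strand of transcription, so the mark of these genes and that of Id4 cannot be told apart.

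The promoter stretches below show how far the members share the sequence elements through which SMAD and Sp factors act. They are from RefSeq on GRCm38.p6, whose start sites differ from those of GENCODE by up to about 1 kb (Id2), and matched 3 of the 4 members. Capitals mark GGCGCC (a GC-rich SMAD element), GGGCGG (the GC box of Sp factors) and CCAAT on either strand, and adjoining or overlapping matches form 1 run. Id2 is shown at chr12:25096254-25096342 (minus strand), Id3 at chr4:136143716-136143745 (plus strand) and Id4 at chr13:48260866-48261115 (plus strand). The windows of Id2 and Id3 lie downstream of the GENCODE starts that were used for all counts, and that of Id4 lies upstream. For Id2 the bases of the window that are not shown lie in an annotated UTR of another transcript, and for Id3 all 250 bases do, the 30 shown included.
Id2: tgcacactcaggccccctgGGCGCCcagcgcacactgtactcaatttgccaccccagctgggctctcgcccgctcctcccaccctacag
Id3: aggcggtgcccaGGGCGGGCGGgggtggac
Id4: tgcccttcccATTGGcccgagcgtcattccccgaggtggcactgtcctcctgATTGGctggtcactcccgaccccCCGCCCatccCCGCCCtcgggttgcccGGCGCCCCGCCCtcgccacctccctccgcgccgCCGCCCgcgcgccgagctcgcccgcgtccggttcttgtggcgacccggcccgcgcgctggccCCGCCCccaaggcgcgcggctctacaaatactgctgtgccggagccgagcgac

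Over the full 250 bases, searched on both strands, Id4 had 1 GGCGCC, 5 GGGCGG, 2 CCAAT and a match to the quadruplex pattern, which is 4 runs of at least 3 G with loops of 1 to 7 bases and which overlaps GC boxes here. Id2 had 1 GGCGCC, 1 GGGCGG, 3 CCAAT and 1 CANNTG (the E-box). Id3 had 2 overlapping GGGCGG and no other match. No member had CAGACA or GTCTAGAC (SMAD elements) or TGACGTCA (the CRE) in these windows. Of all 32851 RefSeq promoter windows of this length, 9.59% held GGCGCC, 32.7% GGGCGG, 33.8% CCAAT, 66.2% CANNTG, 17.1% CAGACA, 0.167% GTCTAGAC, 1.55% TGACGTCA and 16.7% the quadruplex pattern. GC content was 62.8% for both Id2 and Id3, higher than in 78.3% of all windows, and 75.6% for Id4, higher than in 96.4%.

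The libraries held 10864558 to 15568047 valid pairs. Both ends had a mapping quality of at least 30 in 90.4%, 90.8%, 90.8% and 86.6% of the pairs, lowest in miR-9-LOF. With 1 library per condition no test between conditions was possible, and the 95% intervals given here are exact and cover counting error only. The share of pair ends within 2 kb of a coding TSS was 13.6%, 10.7%, 7.48% and 8.20% in the 4 libraries. It thus differed between libraries across the genome, and the ratios of the Id genes in each contrast are also given against promoters with the mark. A promoter counted as marked when the density of pair ends within 2 kb was at least 4 times that from 10 to 100 kb away, which held for 4116 coding promoters (18.9%). Among fibroblast markers, 8 of 10 had promoter ends above the median coding promoter (0.614 to 5.01 times, Vim highest), and 4 of the 10 were marked. Epithelial markers had 0.389 to 1.04 times, endothelial markers 0.498 to 1.16 times and immune markers 0.284 to 0.869 times that median, and 0 of these 13 promoters were marked. Of the epithelial markers 2 of 5 lay above the median, and of the endothelial ones 1 of 4.

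Id1 had the most H3K4me3 pair ends of the 4 genes. Within 2 kb of its TSS there were 1223, 620, 412 and 487 ends in the 4 libraries. Per 1000000 pair ends these were 39.8 (95% interval 37.6 to 42.1), 28.5 (26.3 to 30.9), 14.6 (13.2 to 16.1) and 15.6 (14.3 to 17.1) in that order. The Control level did not overlap the others, and those of the 2 miR-9-LOF libraries overlapped each other. Id1 stood at 11.9, 9.12, 5.15 and 5.53 times the median coding promoter, above 97.8% to 99.4% of coding promoters and above 89.5% to 96.6% of marked ones. Its window held 15 MboI sites against a median of 9, and per site Id1 still lay above 90.6% to 96.0% of coding promoters.

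Id2, Id3 and Id4 were close to each other and far below Id1. For Id4 there were 12.9, 7.87, 5.06 and 6.81 ends per 1000000 in the 4 libraries, from 395, 171, 143 and 212 ends. For Id2 there were 10.3, 7.46, 3.97 and 4.79 per 1000000 from 316, 162, 112 and 149 ends. For Id3 there were 10.1, 7.32, 5.35 and 5.88 per 1000000 from 311, 159, 151 and 183 ends. Control was highest and TGFB1+miR-9-LOF lowest for each of the 4 genes. The order of Id2, Id3 and Id4 was not separated in the TGFB1 library, where the intervals were 6.35 to 8.70 for Id2, 6.22 to 8.55 for Id3 and 6.73 to 9.14 for Id4. In Control Id4 (11.6 to 14.2) lay above Id2 (9.18 to 11.5) and Id3 (9.03 to 11.3). Within 2 kb Id4 had 10 MboI sites and Id2 and Id3 had 8 each, and per site the Control levels were 3.59 times the median coding promoter at both Id4 and Id2 and 3.53 times at Id3, so that the order was not seen per site. As multiples of the median coding promoter, Id4 ranged from 1.79 to 3.83 times, Id2 from 1.40 to 3.07 times and Id3 from 1.89 to 3.02 times across the libraries. Id2 depended on the window, and within 1 kb, next to a gap without MboI sites, it had 0.764, 1.03, 0.273 and 0.417 times the median in the 4 libraries. All 3 lay in the lower part of the marked promoters, above 7.80% to 28.7% of them.

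**Figure D1:**
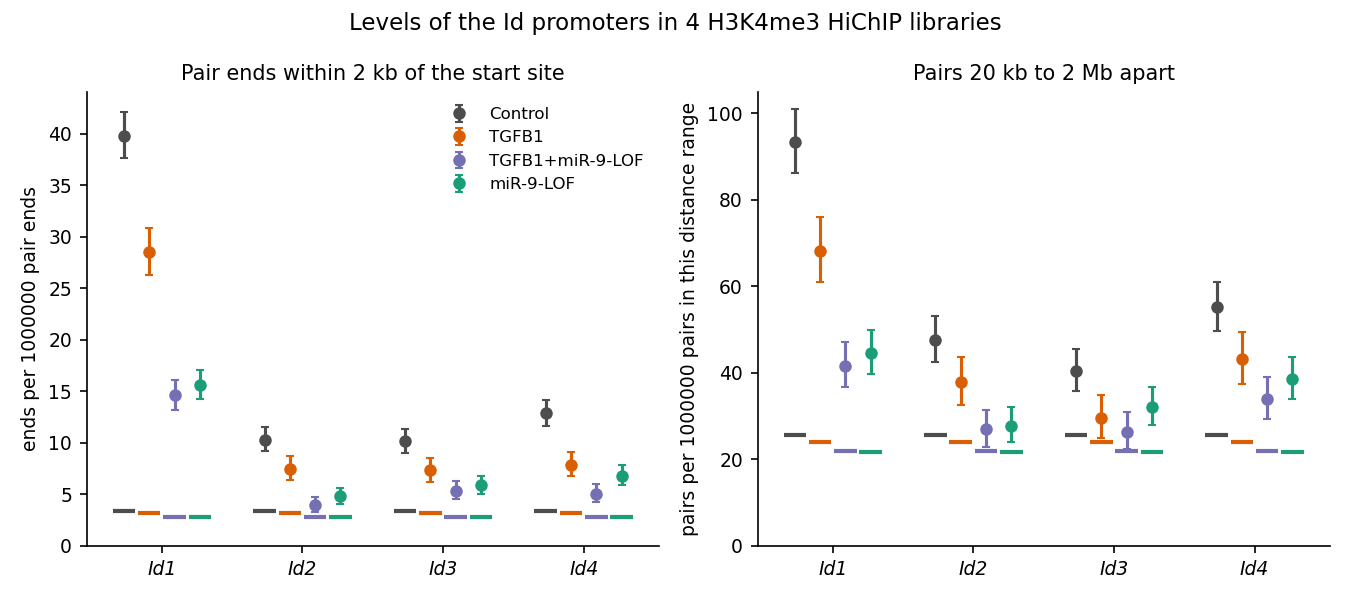
Ends within 2 kb of the TSS per 1000000 pair ends (left) and pairs 20 kb to 2 Mb apart with an end within 10 kb of the TSS per 1000000 such pairs (right) for the 4 Id genes. Points are single libraries with exact 95% intervals for counting error, and short bars mark the median coding promoter of the same library. Id1 is highest in each library on the left, from 14.6 to 39.8 per 1000000, and Control is the highest library for each gene on both sides.

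Pair ends were densest just downstream of the TSS at Id1, Id3 and Id4. Compared with their surroundings 10 to 100 kb away, the density over the TSS was 7.34-fold at Id1, 5.66-fold at Id2, 4.87-fold at Id4 and 3.45-fold at Id3, so that Id3 fell short of the limit for a marked promoter. In steps of 1 kb the highest density was in the first kb of transcription at Id1 (17.9 times the surroundings), Id4 (10.5 times) and Id3 (7.41 times). At Id1 a stretch of 4 kb, from 1 kb upstream to 3 kb downstream, stayed at 4 times the surroundings or more, against 3 kb at Id4, 2 kb at Id2 and 1 kb at Id3. The stretch of Id4 was bounded on both sides by steps without MboI sites and with 0 ends. Its width can therefore not be ranked against that of Id1. MboI sites differed between steps at the other genes too. The first kb held 7 sites at Id1 and 2 at Id3, against 3 and 1 in each adjoining step. Heights and widths of the steps were not corrected for sites. In its first kb Id1 had 756, 397, 232 and 276 ends by library, and Id3 had 165, 84, 79 and 104. Ends can be read only next to MboI sites, and the first kb of Id2 held no site and 0 ends in each library. On either side of that gap Id2 had 129, 64, 58 and 73 ends between 2 and 1 kb upstream, and 145, 59, 42 and 56 ends between 1 and 2 kb downstream. Both flanks of Id2 were therefore above the surroundings, and its width and its level within 2 kb leave the middle out.

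**Figure D2:**
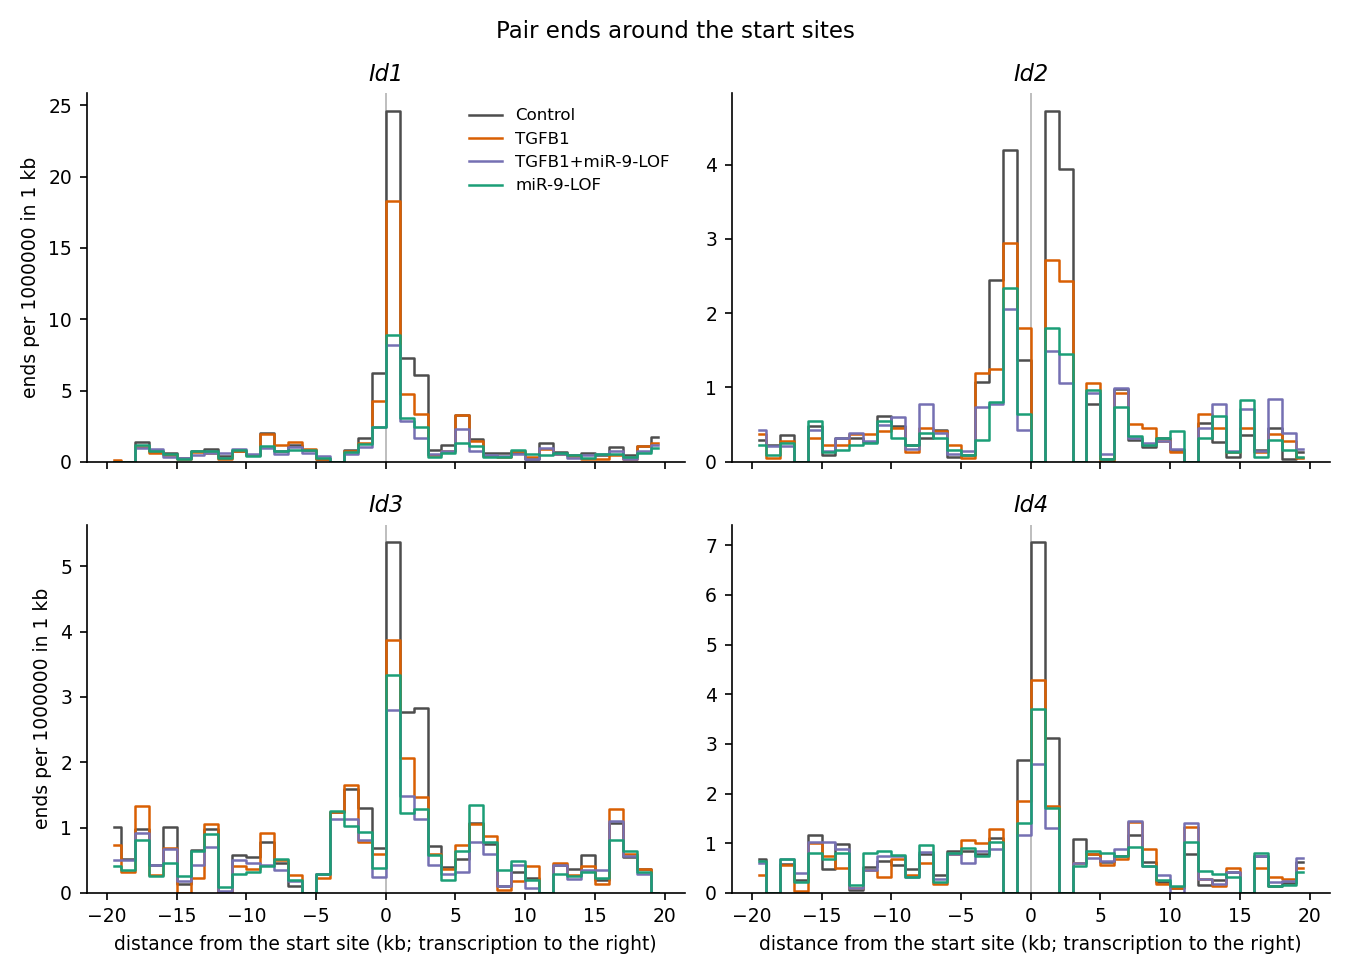
Pair ends per 1000000 in steps of 1 kb from 20 kb upstream to 20 kb downstream of each TSS (vertical line, transcription to the right), with 1 line per library and a vertical axis of its own for each gene. Id1, Id3 and Id4 peak in the first kb, and Id2 has a step without ends there between 2 flanking peaks.

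Distal contacts, counted as pairs 20 kb to 2 Mb apart with an end within 10 kb of the TSS, followed the same order of genes at the top but less steeply. Id1 had 625, 327, 248 and 294 such pairs by library, or 93.4, 68.2, 41.7 and 44.6 per 1000000 pairs in this range. Id4 had 369, 207, 202 and 254 pairs (55.1, 43.2, 33.9 and 38.5 per 1000000). Id2 had 319, 181, 160 and 183 pairs (47.7, 37.8, 26.9 and 27.8 per 1000000). Id3 had 271, 142, 157 and 212 pairs (40.5, 29.6, 26.4 and 32.2 per 1000000). Control was again highest for each gene, and in TGFB1+miR-9-LOF the intervals of Id1 (36.6 to 47.2) and Id4 (29.4 to 39.0) overlapped. Against the median coding promoter Id1 had 1.91 to 3.65 times as many contacts, Id4 1.55 to 2.16 times, Id2 1.23 to 1.87 times and Id3 1.21 to 1.58 times. With a window of 25 kb Id2 fell below that median in TGFB1+miR-9-LOF (0.930 times) and in miR-9-LOF (0.918 times). Among the alternatives Id3 went down to 0.983 times in TGFB1+miR-9-LOF. The 10 kb on either side of the TSS held 56 MboI sites at Id1, 55 at Id2, 38 at Id3 and 66 at Id4, with a median of 49. Per site Id3 lay above 75.5% to 87.7% of coding promoters and Id4 above 58.3% to 71.1%, so that per site their order was the reverse. In miR-9-LOF Id3 (87.7%) also lay above Id1 (84.9%) per site, while Id1 was highest in the other libraries. Id4 lay below Id2 per site in Control (71.1% against 72.6%) and TGFB1 (65.8% against 68.4%), but above it with the loss of miR-9.

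TGFB1 over Control asks how the Id promoters stood after 4 h of the ligand. Each of the 4 had fewer ends per 1000000 in TGFB1, with log2 ratios of -0.48 (Id1), -0.46 (Id2), -0.47 (Id3) and -0.71 (Id4). The median coding promoter stood at -0.26 and the median marked promoter at -0.46. Relative to the median coding promoter the log2 ratio was -0.22 for Id1 (95% interval -0.37 to -0.08), -0.21 for Id2 (-0.49 to 0.07), -0.21 for Id3 (-0.50 to 0.07) and -0.45 for Id4 (-0.72 to -0.19). None of the 4 was past 1.5-fold, against a background of 13.3% of 20407 coding promoters (333 lower and 2373 higher). Within 2 kb Id4 was the lowest of them, below all but 4.25% of coding promoters. Against the median marked promoter the values were -0.03, -0.01, -0.01 and -0.25 for Id1, Id2, Id3 and Id4, each with an interval that included 0, and again none was past 1.5-fold (0.416% of 4086 marked promoters).

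The distal contacts of the 4 genes were likewise lower in TGFB1 than in Control. After subtraction of the coding median the log2 ratio was -0.31 for Id1 (-0.50 to -0.11), -0.19 for Id2 (-0.46 to 0.08), -0.30 for Id3 (-0.61 to -0.01) and -0.21 for Id4 (-0.46 to 0.04). None was past 1.5-fold, with a background of 4.29% over coding promoters (140 lower and 756 higher). Against the median marked promoter they lay between -0.13 and -0.01, with intervals that included 0 and none past 1.5-fold (background 0.319%). At this depth no Id promoter under TGFB1 was separated from the median marked promoter. Id4 came closest to it in ends, at -0.25 (-0.52 to 0.01), below all but 3.89% of marked promoters.

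Of the 4 contrasts miR-9-LOF over Control had the most promoters past 1.5-fold, and per 1000000 ends Id1 was the member with the greatest difference. Its ends were 487 against 1223, a log2 ratio of -1.35, while the median coding promoter stood at -0.42 and the median marked promoter at -0.99. Less the coding median, Id1 had -0.93 (-1.08 to -0.78), Id2 -0.69 (-0.98 to -0.40), Id4 -0.50 (-0.75 to -0.25) and Id3 -0.37 (-0.64 to -0.10). Id1 and Id2 were past 1.5-fold, against a background of 35.6% of coding promoters and, by the same limit, 47.5% of marked ones. Of 20674 coding promoters 2979 were past it on the lower side, as Id1 and Id2 were, and 4380 on the higher. When ends were taken relative to the surroundings 10 to 100 kb away, the order changed to -0.82 for Id2, -0.64 for Id4, -0.54 for Id1 and -0.09 for Id3, so that Id1 was no longer past 1.5-fold and Id4 was. Set against the median marked promoter Id1 still had -0.36 (-0.51 to -0.21), lower than all but 2.74% of marked promoters. Id2 then had -0.12 (-0.41 to 0.17), Id4 0.07 (-0.18 to 0.31) and Id3 0.20 (-0.07 to 0.47). None of the 4 was past 1.5-fold on that scale, where the background was 1.49%.

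In distal contacts Id1 again had the lowest ratio of miR-9-LOF to Control, with 294 against 625 pairs. Less the coding median this was -0.83 (-1.03 to -0.62), a value that 0.224% of coding promoters went below. Id2 had -0.54 (-0.81 to -0.27), Id4 -0.28 (-0.51 to -0.04) and Id3 -0.09 (-0.36 to 0.17). Id1 alone of the 4 was past 1.5-fold, with a background of 17.4% over coding promoters. Of 20980 coding promoters 890 were past it on the lower side, as Id1 was, and 2767 on the higher. Relative to the median marked promoter Id1 had -0.43 (-0.64 to -0.23), below all but 0.835% of marked promoters. Id3 lay on the other side at 0.30 (0.04 to 0.57), Id4 at 0.12 (-0.12 to 0.35) and Id2 at -0.15 (-0.42 to 0.12), and none was past 1.5-fold on this scale (1.37%). The direction of Id3 and Id4 against the rest thus turned with the reference, and that of Id1 did not. Neither reference was matched to the level of Id1.

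TGFB1+miR-9-LOF over TGFB1 asks what the loss of miR-9 did under the ligand, and Id1 and Id2 again had the lowest end ratios. Relative to the median coding promoter the ends of Id1 had -0.64 (-0.82 to -0.46), those of Id2 -0.58 (-0.94 to -0.22), Id4 -0.31 (-0.64 to 0.02) and Id3 -0.12 (-0.45 to 0.21). Id1 was past 1.5-fold on the lower side. The background in either direction was 19% of 20424 coding promoters, with 939 lower and 2946 higher. Relative to the median marked promoter Id1 had -0.23 (-0.42 to -0.05), and none of the 4 was past 1.5-fold there (1.03%). On that scale Id2 had -0.18 (-0.54 to 0.18), while Id3 (0.28, -0.05 to 0.61) and Id4 (0.10, -0.23 to 0.43) turned sign. The order of Id1 and Id2 was not stable, since Id2 was the lower in windows of 1 kb (-1.61 against -0.61), at a mapping quality of 30 (-0.74 against -0.62), with pairs at least 20 kb apart (-0.51 against -0.44), with fragment pairs counted once (-0.52 against -0.50) and relative to the surroundings (-0.74 against -0.45). With the last of these Id2 was past 1.5-fold in place of Id1. In contacts Id1 had -0.55 (-0.80 to -0.31), Id2 -0.33 (-0.65 to -0.02), Id4 -0.19 (-0.48 to 0.10) and Id3 -0.01 (-0.34 to 0.33), with none past 1.5-fold (5.26%). Against the marked median the contacts of Id1 had -0.30 (-0.54 to -0.06) those of Id2 -0.08 (-0.39 to 0.24), those of Id4 0.07 (-0.22 to 0.35) and those of Id3 0.25 (-0.09 to 0.58), and none was past it (0.712%). This contrast shares the TGFB1 library with TGFB1 over Control, and the contrasts with miR-9-LOF and Control share libraries too.

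TGFB1+miR-9-LOF over miR-9-LOF compares the ligand with none after the loss of miR-9. Less the coding median the ends of Id1 had 0.00 (-0.19 to 0.19), Id3 -0.03 (-0.35 to 0.29), Id2 -0.17 (-0.53 to 0.20) and Id4 -0.32 (-0.64 to -0.01). None was past 1.5-fold, either against coding promoters (background 6.99%) or against marked ones (0.612%). The contacts lay between -0.24 (Id3, -0.54 to 0.07) and 0.00 (Id2, -0.31 to 0.32), and none was past 1.5-fold against coding (3.04%) or marked promoters (0.319%). Relative to the median marked promoter the ends lay at 0.10 for Id1, -0.07 for Id2, 0.06 for Id3 and -0.23 for Id4, and the contacts at 0.00, 0.05, -0.19 and -0.09 in the same order, each with an interval that included 0. Within 2 kb Id4 had the lowest end ratio under TGFB1 both with miR-9 (-0.45) and without it (-0.32). That rank depended on the window, since with miR-9 and 5 kb Id1 had -0.36, Id2 -0.30 and Id4 -0.30, and without miR-9 and 1 kb Id2 had -0.47 and Id4 -0.32. The log2 ratio for TGFB1 was more negative with miR-9 present in each of the 8 pairs of gene and measure, by 0.04 to 0.26 on the log2 scale relative to the median coding promoter, but in 5 of the 8 relative to the median marked promoter. Relative to coding promoters each of the 8 differences had an interval that included 0, for Id1 ends -0.23 (-0.46 to 0.01) and for Id1 contacts -0.26 (-0.57 to 0.05).

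**Figure D3:**
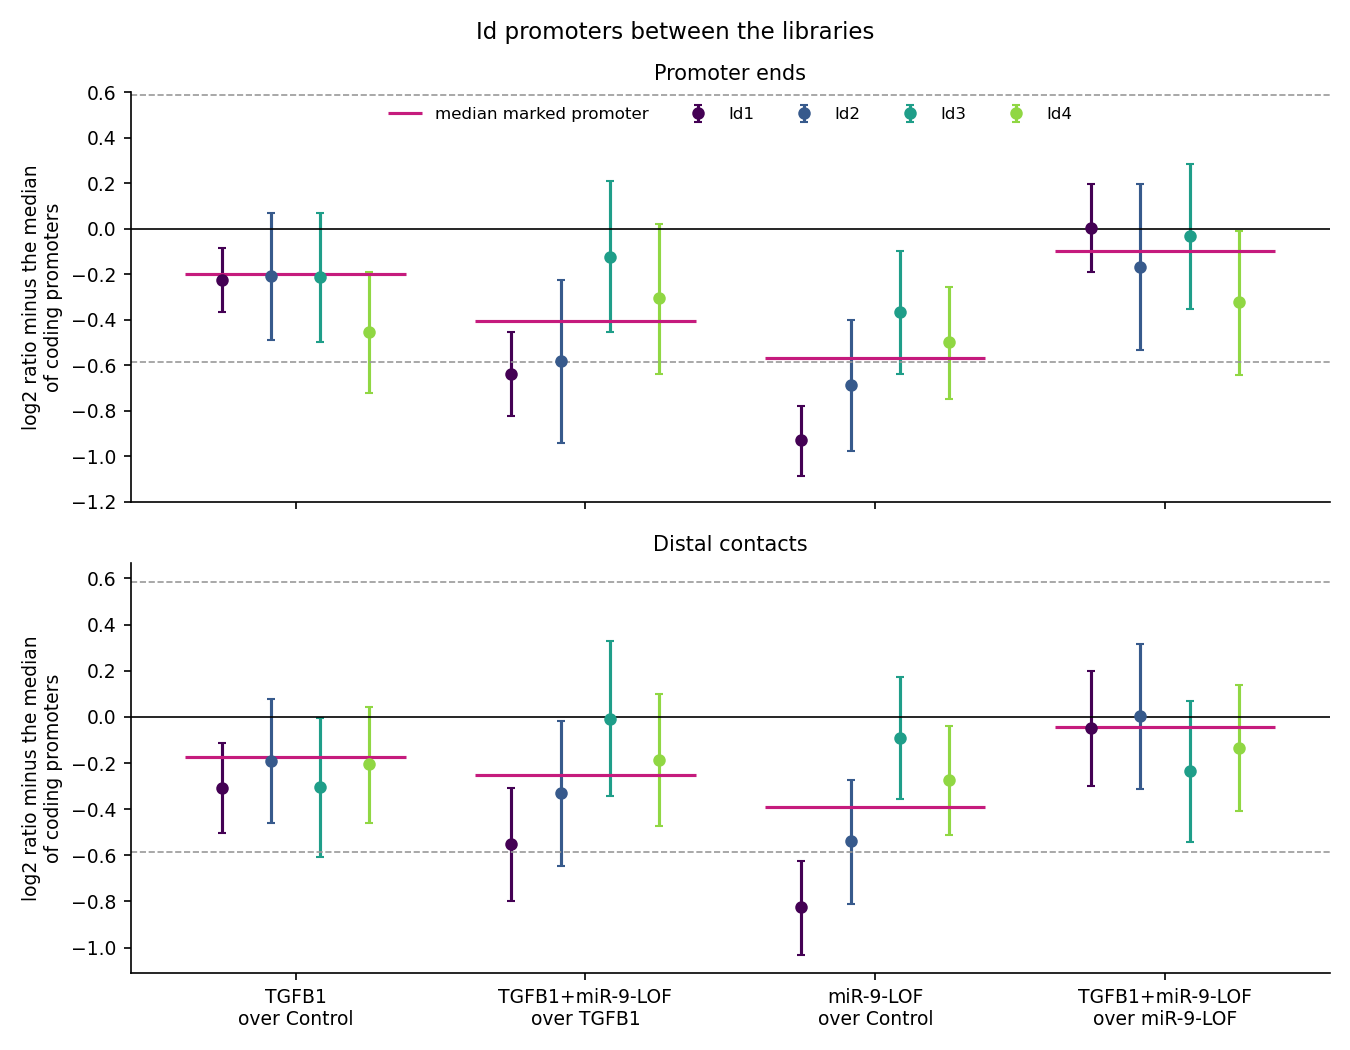
Log2 ratios of promoter ends (top) and distal contacts (bottom) in the 4 contrasts, less the median over coding promoters (0 line), with exact 95% intervals for counting error. Dashed lines are 1.5-fold and the pink bars are the median marked promoter, at -0.20, -0.41, -0.57 and -0.10 for ends from left to right. Id1 lies below the pink bar in both contrasts that add the loss of miR-9, while Id3 lies above it.

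Set directly against each other, which needs no reference promoters, Id1 and Id3 parted with the loss of miR-9. In ends the log2 ratio of miR-9-LOF over Control was lower for Id1 than for Id3 by a difference of -0.56 (-0.87 to -0.25) and lower than for Id4 by a difference of -0.43 (-0.72 to -0.14). Relative to the surroundings 10 to 100 kb away the order of Id1 (-0.54) and Id4 (-0.64) turned, while Id1 stayed below Id3 (-0.09). Under TGFB1 the difference between Id1 and Id3 was -0.51 (-0.89 to -0.13). In contacts the difference of Id1 and Id3 was -0.73 (-1.07 to -0.40) without TGFB1 and -0.54 (-0.96 to -0.12) with it. Contacts also separated Id1 from Id4 (-0.55, -0.86 to -0.24) and Id2 from Id3 (-0.45, -0.83 to -0.07) without TGFB1. Id1 was a marked promoter and Id3 was not, and the median marked promoter itself lay at -0.57 from the median coding promoter in ends of miR-9-LOF over Control, close to the difference of Id1 and Id3. The part of that genome-wide gap was not tested. Of 24 comparisons of genes and contrasts in each measure these were the 3 in ends and the 4 in contacts whose interval left out 0. In both contrasts of TGFB1 treatment the intervals of all 6 gene pairs included 0 in ends and contacts.

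The distal pairs of the Id genes were not spread evenly over both sides. Of the pairs of Id2, 88.4% led upstream in Control (282 of 319), 87.8% in TGFB1, and 82.5% and 86.3% in the libraries with and without TGFB1 after the loss of miR-9. The exact 95% interval was 84.4% to 91.7% in Control and 75.7% to 88.0% in TGFB1+miR-9-LOF. The median coding promoter had 49.7% over the 4 libraries together, and Id2 was more one-sided than 99.7% of the 20513 coding promoters with at least 100 pairs. On its other side coverage was incomplete, since beyond 500 kb downstream 56 of 151 bins of 10 kb held any pair ends. Upstream shares were 70.2%, 67.1%, 65.3% and 66.9% at Id4 and 64.6%, 62.0%, 61.8% and 63.2% at Id3. At Id1 37.8%, 37.6%, 43.1% and 39.5% led upstream, so that most of its pairs went downstream. For each gene the intervals of the 4 libraries overlapped.

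**Figure D4:**
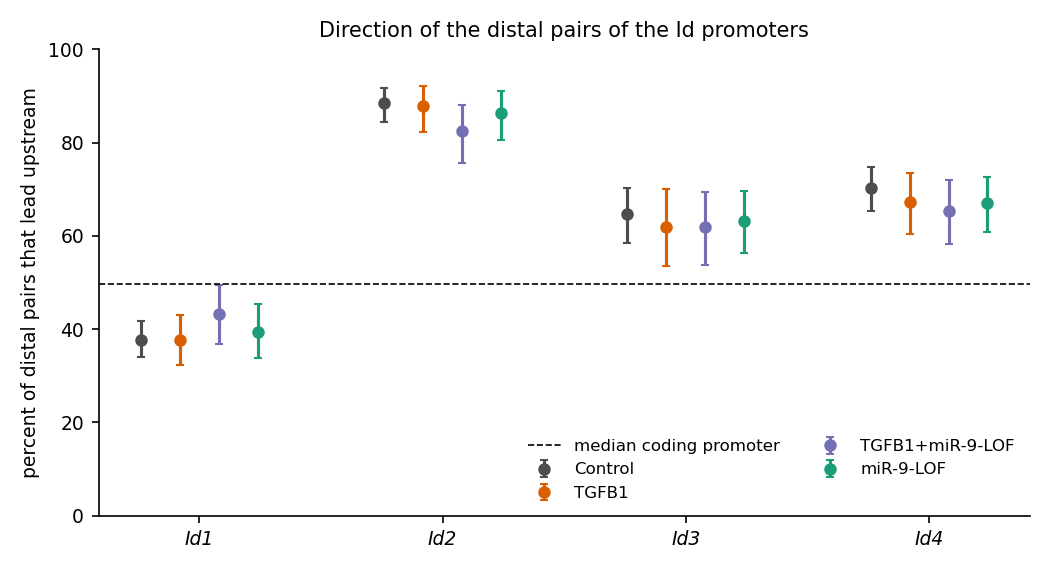
Percent of the distal pairs (20 kb to 2 Mb) of each Id promoter that lead upstream, 1 point per library with its exact 95% interval. The dashed line is the median coding promoter, 49.7%. Id2 lies at 82.5% to 88.4%, Id3 and Id4 between 61.8% and 70.2%, and Id1 between 37.6% and 43.1%.

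The reach of the contacts separated the genes with coding neighbors from those next to gene deserts. Over the 4 libraries together 59.6% of the pairs of Id1 and 53.1% of those of Id3 were 20 to 100 kb long, more than at 98.3% and 92.9% of coding promoters, whose median was 36.7%. At Id4 it was 22.1%, less than at all but 4.46% of coding promoters, and at Id2 32.1%. Pairs of 500 kb to 2 Mb made up 27.1% of the pairs at Id4 and 26.1% at Id2, but 13.9% at Id3 and 10.98% at Id1, with a median of 19.2%.

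To ask where the contacts exceeded what distance and coverage of both bins give, the pairs of the 10-kb bin that holds each TSS were counted in bins of 10 kb on either side, with the 4 libraries summed. Upstream of Id2 there were 259 pairs between 100 and 500 kb where 72.5 were expected, 3.57 times as many (3.15 to 4.04), and 39 of the 40 bins were above their expectation. Between 500 kb and 2 Mb upstream there were 162 against 32.4 pairs, 5.00 times as many (4.26 to 5.83). Downstream of Id2 there were 27 against 53.4 pairs between 100 and 500 kb, 0.506 times (0.333 to 0.736), with all 40 of these bins covered. The excess of Id2 was thus on its upstream side at both ranges. Upstream of Id4 there were 235 against 146 pairs between 100 and 500 kb (1.61 times, 1.41 to 1.83) and 165 against 80.3 beyond (2.06 times, 1.75 to 2.39), and downstream 142 against 179 (0.791 times) and 37 against 99.8 (0.371 times). At 20 to 100 kb Id4 lay below the expectation on both sides. There it had 95 against 122 pairs upstream (0.778 times, 0.63 to 0.95) and 68 against 105 downstream (0.649 times). Id3 exceeded the expectation at 20 to 100 kb upstream, with 201 against 85.5 pairs (2.35 times, 2.04 to 2.70) and each of the 8 bins above it. Id1 was above it at 20 to 100 kb downstream, with 303 against 262 pairs (1.16 times, 1.03 to 1.29), and between 0.344 and 0.908 times it in its other classes. The expectation grows with the product of both coverages, and the bin of the Id1 TSS held 1068 distal pairs against 654 at Id2, 539 at Id3 and 742 at Id4. The part of coverage in these ratios was not tested.

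**Figure D5:**
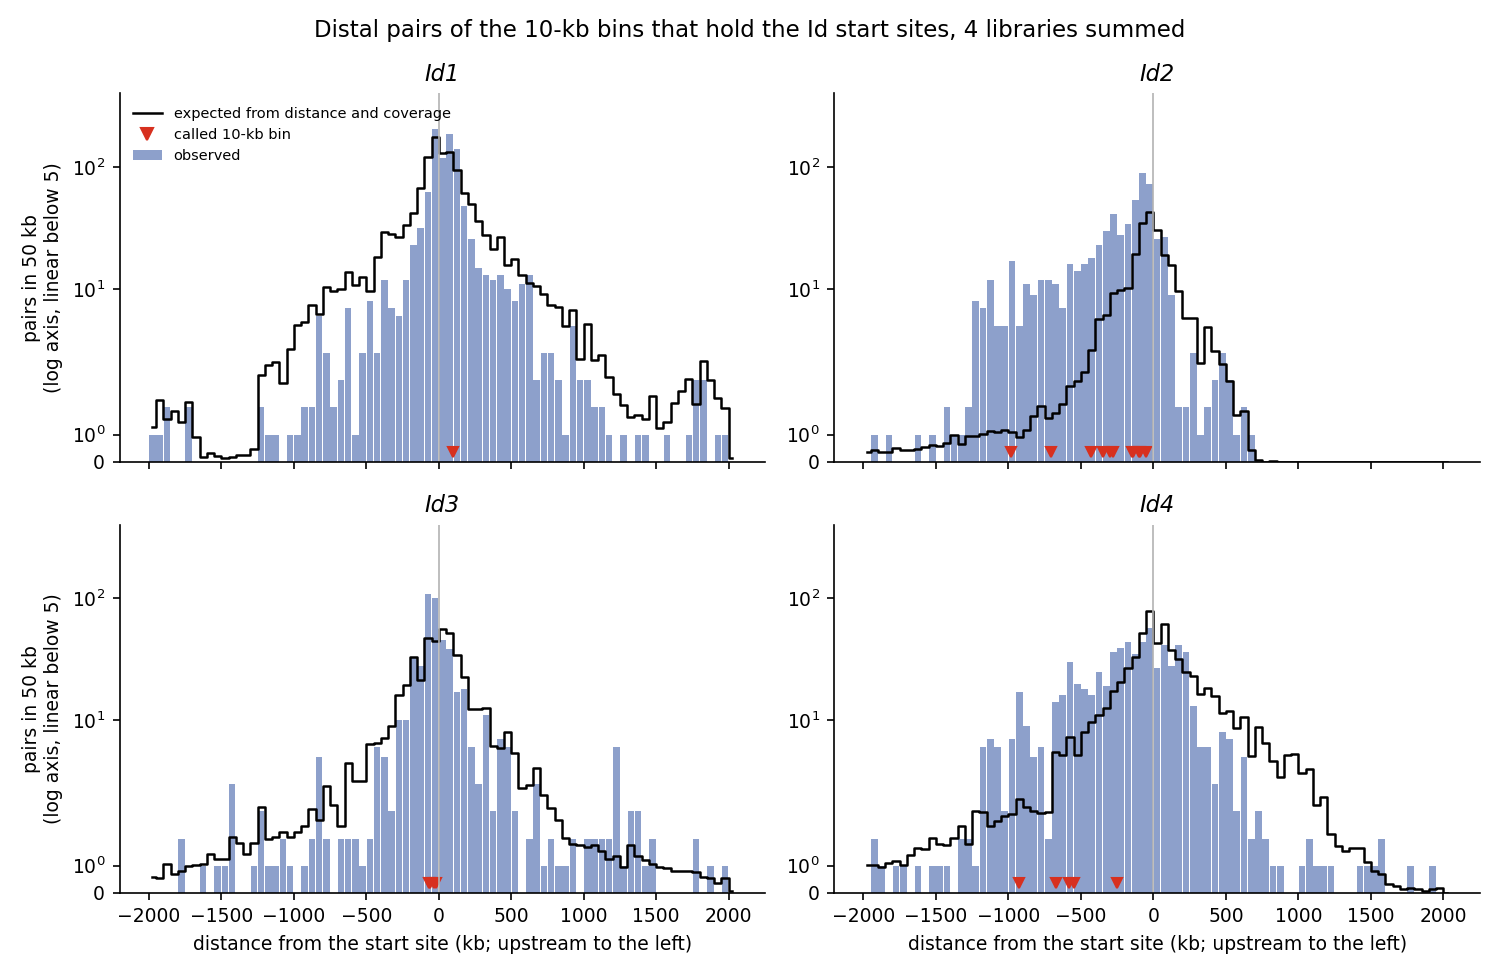
Pairs between the 10-kb bin of each Id TSS and the bins up to 2 Mb on either side (upstream to the left), summed in steps of 50 kb over the 4 libraries, on a log axis that is linear below 5. Bars are observed pairs, the black line is the number expected from distance and coverage, and triangles mark the called 10-kb bins. Id2 runs above the line upstream, and Id4 does so beyond 100 kb upstream but not nearer. Id1 runs below it at most distances beyond 100 kb.

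Distal partners were called by a one-sided Poisson test against that expectation, with Benjamini-Hochberg adjustment over 6855501 bin pairs of all coding promoters, of which 0.181% were called. A partner had an adjusted p of at most 0.05 and at least 5 pairs. The Id genes had 21 partner bins, 1 at Id1, 11 at Id2, 4 at Id3 and 5 at Id4, and 20 of them lay upstream. These were 0.251%, 3.63%, 1.01% and 1.26% of the bins tested for each gene. The share of upstream partners over all coding promoters is not given. For comparison 30.8% of coding promoters and 61.8% of marked ones had any partner, and Id2 had more than 99.5% of them. The expectation does not include the excess of a whole flank. That excess was 3.57 times upstream of Id2 between 100 and 500 kb and 2.35 times upstream of Id3 at 20 to 100 kb. Whether the called bins stood out from their flank was not tested. The number of partners changed when a library was left out. That also removes pairs, so the part of a single library and that of depth cannot be told apart. Without Control there were 1, 1, 1 and 2 partners at Id1, Id2, Id3 and Id4, without TGFB1 1, 6, 2 and 2, without TGFB1+miR-9-LOF 1, 12, 2 and 3, and without miR-9-LOF 1, 5, 1 and 1. When both ends needed a mapping quality of 30, 11 of the 21 bins were still called, and the counts of single bins are given here only where they were called in most of the 8 other settings with bins of 10 kb.

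The partner of Id1 was the promoter of Bcl2l1, which encodes the survival protein BCL-XL. Its bin, on chromosome 2 from 152830001 to 152840000, lies 100 kb downstream and was the only one of the 21 with a coding TSS in it or within 5 kb. The other 20 lay nearer to their gene than its first upstream coding TSS. The share of called bins with a coding TSS over all promoters is not given. There were 39, 19, 9 and 21 pairs in the 4 libraries, where 22.5, 10.9, 4.83 and 7.46 were expected. With the expectation fitted to the summed libraries, which need not equal the sum over libraries, there were 88 against 43.3 in all, 2.03 times as many, with an adjusted p of 8.48e-06 by the Poisson test. The ratios by library were 1.73 (1.23 to 2.37), 1.74 (1.05 to 2.72), 1.86 (0.852 to 3.54) and 2.81 (1.74 to 4.30), with intervals that overlapped. This bin was called in all 8 other settings.

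The strongest partner of Id3 lay 70 kb upstream, on chromosome 4 from 136070001 to 136080000, in a bin with the processed pseudogene Gm13009 and no coding TSS. It had 16, 8, 11 and 10 pairs in the 4 libraries against 4.14, 2.20, 2.09 and 2.59 expected, and was called in all 8 other settings (45 against 11.1 in all, adjusted p 3.47e-10). Library by library the ratios were 3.87 (2.21 to 6.28), 3.64 (1.57 to 7.18), 5.27 (2.63 to 9.43) and 3.86 (1.85 to 7.10). The other 3 partners of Id3 were 20, 30 and 60 kb upstream.

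Upstream of Id4 the partner with the smallest p was 930 kb away, on chromosome 13 from 47330001 to 47340000, where the lincRNA Gm48612 lies. It had 3, 4, 2 and 3 pairs in the 4 libraries, 12 where 0.914 were expected (adjusted p 1.89e-06), and was called in all 8 other settings. Pairs were thus few in each library but present in every one. The other partners of Id4 were 250, 550, 580 and 670 kb upstream.

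At Id2 the partner with the smallest p was 350 kb upstream, on chromosome 12 from 25440001 to 25450000, within the lincRNA Gm36723. It had 2, 2, 3 and 5 pairs by library, 12 where 1.27 were expected (adjusted p 3.93e-05), and was called in 7 of the 8 other settings. The bin 980 kb upstream, from 26070001 to 26080000, had 3, 3, 0 and 1 pairs, 7 where 0.294 were expected (adjusted p 9.05e-05), but was not called at a mapping quality of 30. At 0 pairs the interval of the ratio in TGFB1+miR-9-LOF reached up to 60.8 and overlapped those of the other libraries. The absence of pairs there is therefore within counting error. The other 9 partners of Id2 lay 50 to 710 kb upstream. Summed over the partners of a gene, pairs were 4.60, 3.99, 2.43 and 3.93 times the expectation at Id2 and 5.29, 6.35, 3.57 and 6.52 times at Id4, library by library, with TGFB1+miR-9-LOF lowest. At Id3 that library was highest (2.96, 2.48, 3.22 and 2.72 times), and the single partner of Id1 was given above. Since the same pairs chose these bins, the sums describe them and do not test them.

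Other genes were described with 5 lists of 50 genes in all, relative to the median coding promoter unless stated. The lists of ligand, receptor, SMAD and inhibitor genes are of the BMP and TGFB pathway. The list of basic helix-loop-helix genes holds partners and opposed factors of ID proteins. In promoter ends of TGFB1 over Control 1 of 9 ligand genes was past 1.5-fold of the median coding promoter (higher), 2 of 12 receptor genes (1 higher, 1 lower), 0 of 6 SMAD genes, 1 of 12 inhibitor genes (lower) and 2 of 11 basic helix-loop-helix genes (higher), where 13.3% of all coding promoters were past it. The medians of the lists lay between -0.22 (SMAD genes) and -0.02 (ligands). The genes at the high end did not have marked promoters. They were Bmp7 (0.94, 0.26 to 1.63), a BMP ligand, Acvrl1 (0.86, 0.35 to 1.37), a type I receptor, and Tcf21 (1.00, 0.43 to 1.58), a transcription factor of lung mesenchyme, with densities of 0.719 to 1.17 times their surroundings. Smad2 (0.07, -0.40 to 0.52), a mediator of TGFB signaling, was highest among the SMAD genes. At the low end were Fst (-0.61, -0.87 to -0.36), the gene of the activin inhibitor follistatin, Tgfbr1 (-0.64, -1.30 to -0.02), the type I TGFB receptor, Inhbb (-0.43, -0.59 to -0.26), which encodes an activin subunit, Tcf12 (-0.35, -0.57 to -0.13), an E protein, and Smad3 (-0.32, -0.50 to -0.14).

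In distal contacts of TGFB1 over Control the lists held 1 ligand gene and 1 basic helix-loop-helix gene past 1.5-fold, both higher, and no others, where 4.29% of all coding promoters were past it. These were Bmp2 (0.75, 0.40 to 1.10) and Heyl (0.59, 0.11 to 1.07), a target of Notch signaling. Bmp4 (-0.47, -0.71 to -0.23), Fst (-0.49, -0.74 to -0.25), Bmpr1a (-0.33, -0.63 to -0.04), Smad3 (-0.35, -0.54 to -0.16) and Tcf12 (-0.32, -0.58 to -0.06) were lowest in their lists, and Acvrl1 (0.36), Smad2 (0.30) and Nog (0.27), a BMP antagonist, highest in theirs. With the loss of miR-9 and no TGFB1, 5 of 6 SMAD genes had ends past 1.5-fold below the median coding promoter, as did 6 of 12 receptor, 6 of 12 inhibitor, 3 of 11 basic helix-loop-helix and 2 of 9 ligand genes, while 1 ligand, 1 receptor and 2 basic helix-loop-helix genes were past it on the higher side. Of all coding promoters 2979 of 20674 lay past it on the lower and 4380 on the higher side. The marked members of the lists, 3 to 8 genes each, had medians between -0.14 and 0.06 relative to the median marked promoter, and 0 of them were past 1.5-fold there. In contacts of the same libraries 1 ligand and 1 basic helix-loop-helix gene were past 1.5-fold of the coding median on the higher side, and 2 ligand, 1 receptor, 1 SMAD, 4 inhibitor and 1 basic helix-loop-helix genes on the lower, where 2767 of 20980 coding promoters were past it on the higher and 890 on the lower side (17.4% together). With the loss of miR-9 under TGFB1, 2 inhibitor genes had ends past it on the lower side and no other gene of the lists on either side, nor any in contacts, with backgrounds of 19% in ends and 5.26% in contacts. TGFB1 without miR-9 had 1 ligand, 1 SMAD and 2 basic helix-loop-helix genes past it in ends, each higher, and 0 of the 50 genes in contacts, with backgrounds of 6.99% and 3.04%.

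The marked promoters whose 4 levels, relative to the median marked promoter, lay nearest to those of a member were Arid2 and Sqle for Id1, Pelo and Ago3 for Id2, Depdc1b and Mpp1 for Id3 and Phgdh and Cnot4 for Id4. The Euclidean distances over the 4 log2 levels were 0.10 and 0.13 for Id1, 0.09 and 0.12 for Id2, 0.07 and 0.07 for Id3 and 0.06 and 0.10 for Id4. The counting error of the members themselves was 0.12, 0.23, 0.21 and 0.20 in the same measure, and 1, 51, 60 and 34 marked promoters lay within it.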

How the data were processed

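H3K4me3 HiChIP-seq of MLg cells was analyzed in 4 libraries, 1 per condition. With HiC-Pro at default settings, the authors mapped reads to mm10, discarded duplicates and kept valid pairs of MboI fragments at any distance (version not given in the sources used here). The deposited values used here are the positions of both ends of each valid pair, and beside them the authors give a mapping quality score for either end, used as a filter in an alternative. Pair ends within 2 kb and pairs 20 kb to 2 Mb apart with an end within 10 kb of each coding TSS were counted per 1000000 pair ends or per 1000000 such pairs, in Python 3.11.15 (scipy 1.17.1, numpy 2.4.6, pyarrow 21.0.0 and pandas 2.3.3), and plotted with matplotlib 3.10.9. Log2 ratios were taken less the median over coding promoters with at least 20 counts in both libraries together, without a pseudocount. Their 95% intervals are Clopper-Pearson intervals of the conditional binomial, levels have exact Poisson intervals, and shares have exact binomial intervals. Past 1.5-fold is a limit of size and not a test. Differences of TGFB1 effects have normal intervals on the log scale, and those between genes have exact conditional intervals of the odds ratio. The expected number of pairs between 2 bins multiplies both coverages by a factor for the distance. PCR reads without molecular identifiers are not independent molecules, so intervals cover counting error only. The counting and the tests were checked on simulated data.

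The members and lists were chosen with earlier results of these data known. Named were the 4 members, the genes highest and lowest in each list in TGFB1 over Control (a gene of the lists is not reported here), the coding genes at the 5 partner bins of smallest p per member, the nearest coding neighbors, and the 2 marked promoters (with as many ends as the member, or 500) of nearest levels. The noncoding genes at partner bins were named after their values were seen. Alternatives changed windows, totals, distances, minimum counts, mapping quality, bin sizes and the reference promoters, counted each pair of fragments once, and left out each library in turn. The numbers per MboI site were added after the data were seen.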

Additional observations from a re-analysis of the deposited data

How the results depend on the processing

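The order of the libraries rests on 1 library each, and the intervals do not hold the spread between cultures. Of the 4 Id genes, the number past 1.5-fold in ends of TGFB1 over Control was 0, but 1 in windows of 1 kb (Id2, 0.72 from 42 and 39 ends next to a gap without MboI sites, where its direction turned) and 1 relative to the surroundings (Id4). The 1 in ends of TGFB1+miR-9-LOF over TGFB1 became 2 with windows of 1 kb or 5 kb, at a mapping quality of 30 and without a minimum count, and 0 with pairs at least 20 kb apart, fragment pairs once, the marked median or at least 100 counts. In miR-9-LOF over Control the 2 became 1 with windows of 1 kb or at least 100 counts and 0 with the marked median. Relative to the surroundings the numbers stayed at 2 and 1, but Id2 and Id4 were past it in place of Id1 and Id2 in miR-9-LOF over Control, and Id2 in place of Id1 in TGFB1+miR-9-LOF over TGFB1. In contacts, TGFB1+miR-9-LOF over TGFB1 went from 0 to 1 with a window of 5 kb or an upper limit of 1 Mb, and miR-9-LOF over Control from 1 to 2 with a window of 5 kb or a mapping quality of 30 and to 0 with the marked median. In TGFB1+miR-9-LOF over miR-9-LOF, ends and contacts, and in contacts of TGFB1 over Control the number was 0 in each alternative. Over all alternatives the ratio of Id1 in miR-9-LOF over Control ranged from -1.02 to -0.36 in ends and from -0.90 to -0.43 in contacts. Levels of ends in Control ranged over the alternatives from 6.13 to 17.2 times the median coding promoter at Id1, 0.764 to 5.95 at Id2, 2.40 to 3.53 at Id3 and 2.44 to 5.44 at Id4. Partners numbered 3, 39, 4 and 7 at Id1, Id2, Id3 and Id4 with bins of 20 kb, 1, 1, 1 and 0 with bins of 5 kb, and 1, 2, 1 and 2 at an adjusted p of 0.01. A mapping quality of 30 gave 4 at Id2 and 2 at Id3, and libraries thinned to equal pairs gave 3 at Id2 and 3 at Id4. Leaving out 1 library gave 1 to 12 at Id2, 1 to 2 at Id3 and 1 to 3 at Id4. No paired analysis was possible because each condition has 1 library and the labels give no replicate numbers.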
